A study of Mus musculus with 4 samples.

Results

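Translation factors are the proteins that load ribosomes onto mRNA, start them at the first codon and move them along the message. The genes described here are all those of the expression table whose symbol begins with Eif, Eef1 or *Eef2*, apart from the 2 X- and Y-linked *Eif2s3* genes. This gave 59 of 18364 genes, 51 named for initiation and 8 named for elongation. They were measured by bulk RNA sequencing in large peritoneal macrophages (LPMs), long-lived resident cells of the peritoneum, sorted as F4/80+ MHCII-negative CD102+ cells from 8-week-old C57BL/6 mice. 2 libraries were labelled wild type (WT) and 2 were labelled RXRa-/- (Rxra-KO). *Rxra* encodes retinoid X receptor alpha, a nuclear receptor, and the comparison asks how its loss alters LPM transcripts. Per the study's methods both groups carried floxed *Rxra* alleles, and Rxra-KO mice also carried Cre in the *Lyz2* (LysM) locus, which acts in myeloid cells in general and not in LPMs alone. The labels do not say whether the libraries of a group came from separate mice. The p-values thus rest on the spread between these libraries, shared largely across genes, which may be technical. The study left out RNA-seq samples that did not group with their own condition, and such samples were not analysed here.

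In eukaryotes, initiation begins when eIF2 carries the initiator tRNA to the small ribosomal subunit, which eIF1, eIF1A, eIF3 and eIF5 hold in a form able to scan mRNA. The eIF4F complex binds the mRNA cap and unwinds the leader, eIF5B joins the large subunit, and elongation then cycles between eEF1A, which delivers each tRNA, and eEF2, which moves the ribosome by a codon. Many transcripts of this machinery, together with those of ribosomal proteins, start with a tract of pyrimidines (a terminal oligopyrimidine, or TOP, motif) through which mTOR signalling controls their own translation.

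Values are the deposited read signal, a number of reads plus 0.5 scaled to the size of the library, from which the reads were recovered. Values are given in the order WT replicate 1, WT replicate 2, Rxra-KO replicate 1 and Rxra-KO replicate 2. The libraries held 652542, 947372, 629030 and 1047021 reads. The 59 genes took 8168, 13064, 7591 and 12846 of them, or 1.25%, 1.38%, 1.21% and 1.23%. This share was 1.32% ± 0.0900 in WT and 1.22% ± 0.0142 in the libraries labelled Rxra-KO (SD, n = 2 each). The groups did not overlap in this share, and 38.1% of single genes of the table did not overlap either. In scaled signal the sums were 12412, 14204, 11474 and 12788, and the groups overlapped. The mean sum was 7419 in WT and 7511 in Rxra-KO for the initiation genes, and 5889 and 4620 for the elongation genes. A mean of at least 10 reads was reached by 51 of the 59 genes and of at least 100 reads by 20, while 8 had fewer than 10. A gene at 3 reads or fewer in every library was taken to be at the floor, and this held for *Eef1a2* (1, 0, 1 and 1 reads), the eEF1A form known from neurons and muscle.

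The targeted gene did not follow its label. *Rxra* had 20, 28, 33 and 77 reads, a log2 fold change of 0.99 with an SE of 0.36 (limma adjusted p = 0.183), with both libraries labelled Rxra-KO above both WT libraries. Reads per gene cannot show the loss of a floxed exon alone, so the deletion itself was not tested, and every direction below rests on the labels. *Lyz2*, which carries the Cre, had 9420, 10684, 4241 and 6272 reads, and fell (log2 fold change −1.03, limma adjusted p = 0.00163). Of 7 measured markers of LPMs 5 fell in the libraries labelled Rxra-KO (*Itgam*, *Icam2*, *Gata6*, *Prg4* and *Lyz2*). The *Lyz2* locus held the Cre in Rxra-KO mice alone. For *Lyz2*, an effect of the Cre and one of *Rxra* loss thus cannot be told apart. *Timd4* (log2 fold change −0.80) and *Csf1r* (0.36, higher in both libraries labelled Rxra-KO) were not called. The summed signal of the list, most of it from *Prg4* and *Lyz2*, was 48969, 48390, 24976 and 27152. Of 7 markers of small peritoneal macrophages (SPMs) or monocytes 5 rose (*Ccr2*, *Irf4*, *Retnla*, *Mrc1* and *Fcrls*), with sums of 375, 111, 4266 and 5700. *Ly6c2* (5, 0, 1 and 0 reads) and *Cd226* (1, 2, 3 and 3 reads) were not called. Of 8 genes of cycling cells 5 fell (*Mki67*, *Top2a*, *Cenpf*, *Mcm2* and *Mcm5*), with sums of 769, 1698, 337 and 304. *Ccnb1* (−0.59), *Cdk1* (−1.22) and *Birc5* (0.04) were not called. Lists for T cells, B cells, mesothelium, mast cells, neutrophils and dendritic cells summed to between 5.42 and 86.8 in WT and between 12.9 and 112 in the libraries labelled Rxra-KO. Among them *Cd2* (0, 0, 11 and 6 reads) and *Cd209a* (14, 13, 43 and 80 reads) rose, and no marker was at 0 reads in every library. Of the 4 measured T cell genes 1 was below 0, *Lck* with 7, 11, 2 and 0 reads. The 5 dendritic cell genes also held 1 below 0, *Clec9a* with 1, 6, 1 and 1 reads, and neither was called. In bulk RNA, fewer cells of a type and less RNA per cell cannot be told apart.

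Of the 59 translation factor genes, 2 changed and both fell in the libraries labelled Rxra-KO. They were *Eif4e3*, which encodes a member of the cap-binding eIF4E family, and *Eef1b2*, which encodes a guanine nucleotide exchange subunit of eEF1B. A gene was called at a limma adjusted p under 0.05 over all 18364 genes and a log2 fold change past 0.6 in either direction. The 2 calls are 3.39% of the translation factor genes, beside 421 calls in the whole table, which are 2.29% of it (178, or 0.969%, lower and 243, or 1.32%, higher). Among genes with a mean of at least 100 reads the share called was 13.7% (193 of 1405), and 1 of the 20 translation factor genes at that depth was called. An unadjusted p under 0.05 was found for 7 members (11.9%), and 10.1% of all genes had such a p. The groups did not overlap for 12 members lower and 12 higher in the libraries labelled Rxra-KO, together 40.7%. Over the table the groups did not overlap for 38.1% of genes (19.3% lower and 18.8% higher). Over all depths the members' share of calls and of non-overlapping groups stood near that of the table.

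The median log2 fold change of the 59 genes was 0.05, beside 0.02 over all genes, with 25 members (42.4%) below 0 and 48.9% of the table below 0. Fold changes ranged from −1.21 for *Eif4e3* to 1.05 for *Eif5a2*. The median SE was 0.32, and 48 members had an absolute log2 fold change under 0.6. For 28 members the 95% interval lay within a log2 change of 1 in either direction, and for the others the interval reached beyond that. The 51 initiation genes had a median of 0.06 with 19 below 0, and the 8 elongation genes had a median of −0.24 with 6 below 0. The plot of fold change by complex shows each gene with its interval.

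**Figure D1:**
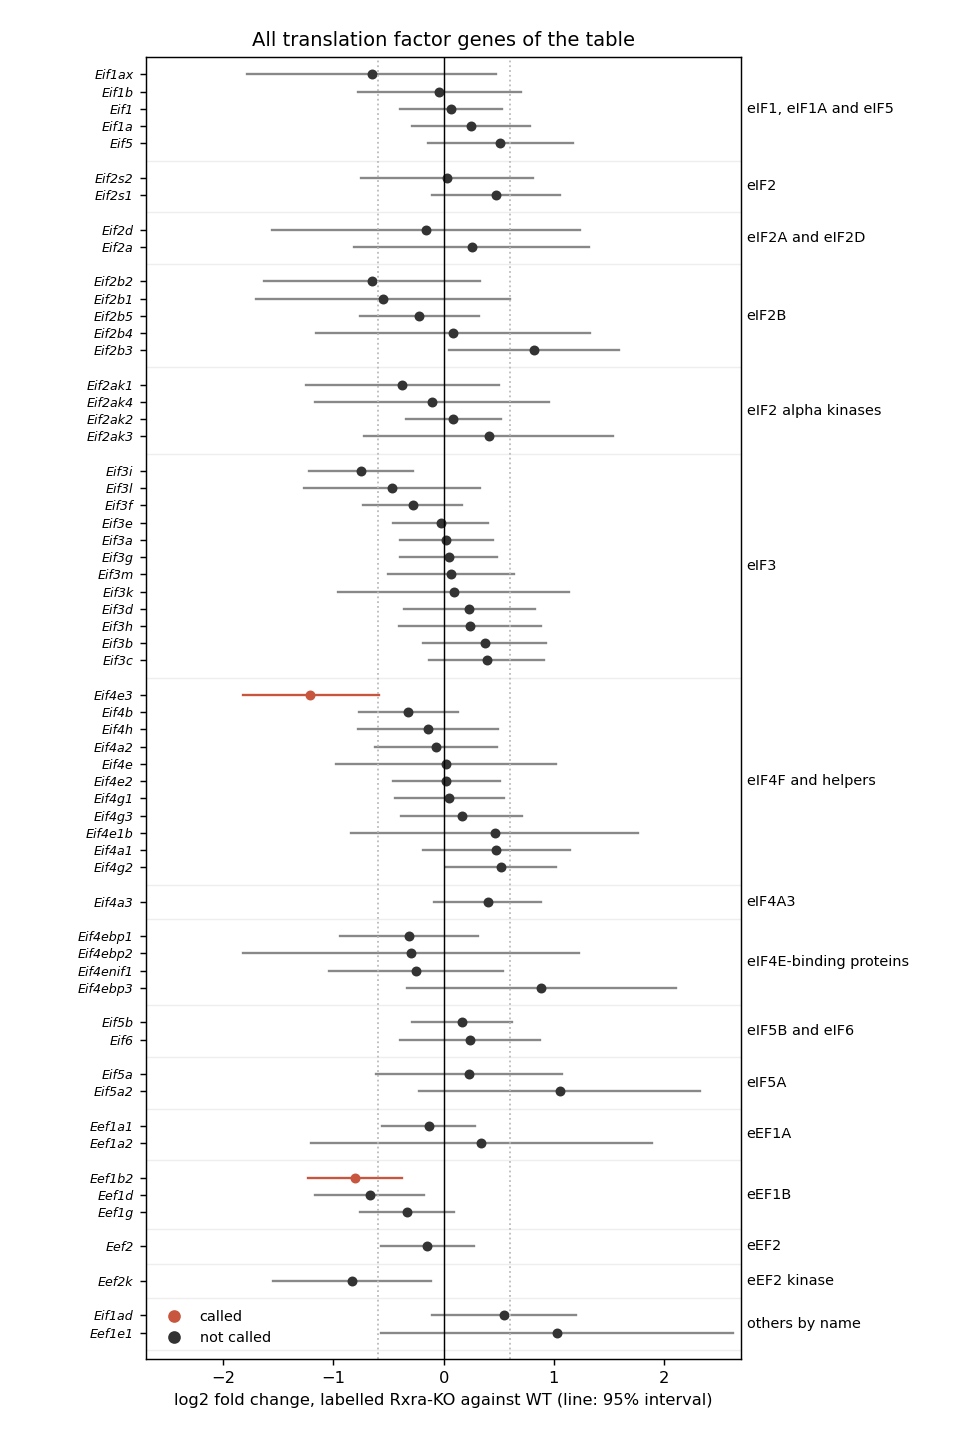
Log2 fold change of all 59 translation factor genes in the libraries labelled Rxra-KO against WT (2 libraries each), grouped by complex, with 95% intervals as lines and the threshold of 0.6 dotted. *Eif4e3* and *Eef1b2* (red) were the genes called, and the 3 subunits of eEF1B all lay below 0, at −0.80, −0.67 and −0.33.

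In elongation, eEF1A carries aminoacyl-tRNA to the ribosome, and eEF1B, built from alpha (*Eef1b2*), delta (*Eef1d*) and gamma (*Eef1g*) subunits, recharges it with GTP. *Eef1b2* had 813, 1699, 502 and 994 reads, a signal of 1232, 1844, 757 and 988. The mean was 1538 ± 433 in WT and 872 ± 163 in the libraries labelled Rxra-KO (SD, n = 2), 1.74-fold lower on the log2(value + 1) scale. Both WT libraries lay above both others. The log2 fold change was −0.80 with an SE of 0.22 and a 95% interval from −1.23 to −0.37 (limma adjusted p = 0.0155). The call rested on 2 libraries, since the log2 fold change was −0.51 without WT replicate 2 (limma adjusted p = 0.685) and −0.61 without Rxra-KO replicate 1 (limma adjusted p = 0.26), and it held without either of the others. Limma without a trend also ended it (adjusted p = 0.691), and over all settings the adjusted p ranged from 0.000105 to 0.691.

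The other 2 subunits did not pass the test. *Eef1d* had a signal of 202, 310, 136 and 180, with a log2 fold change of −0.67 and an interval from −1.17 to −0.18 (limma adjusted p = 0.197). *Eef1g* had a signal of 1029, 1091, 736 and 961, with a log2 fold change of −0.33 and an interval from −0.76 to 0.09 (limma adjusted p = 0.671). For each of the 3 subunits both libraries labelled Rxra-KO lay below both WT libraries, and each stayed below 0 whichever library was left out. Of the *Eef1g* transcript 64.3% of 50-base stretches also occur in other genes, so reads may have been split with its copies.

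*Eef1a1*, the partner that eEF1B recharges, had a signal of 1984, 2230, 2023 and 1815. The groups overlapped, and the log2 fold change was −0.13 with an interval from −0.56 to 0.29, which leaves out a change as large as the point estimates of *Eef1b2* and *Eef1d*. Some 52.4% of its 50-base stretches occur in 20 other genes, so its level is uncertain. Within each library the reads of *Eef1b2* per 100 reads of *Eef1a1* were 62.1, 82.7, 37.4 and 54.4, a mean of 72.4 ± 14.6 in WT and 45.9 ± 12.0 in the libraries labelled Rxra-KO (SD, n = 2). For *Eef1d* the ratio was 10.2, 13.9, 6.70 and 9.91, and these groups did not overlap either. For *Eef1g* it was 51.8, 48.9, 36.3 and 52.9, with overlap. These ratios need no scaling between libraries, but they reuse the reads behind the fold changes above and are no separate test of them.

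*Eef2*, the translocase, had a signal of 883, 847, 775 and 787, with a log2 fold change of −0.15 and an interval from −0.57 to 0.28. *Eef2k*, the kinase that inactivates eEF2, had 36, 57, 20 and 34 reads and a signal of 55.3, 62.4, 30.9 and 34.3. The log2 fold change of *Eef2k* was −0.83 with an interval from −1.55 to −0.12 (limma adjusted p = 0.336), so it was not called, although both libraries labelled Rxra-KO lay below both WT libraries. Its reads per 100 reads of *Eef2* were 6.18, 7.31, 3.89 and 4.29. *Eef1e1*, which by its known role belongs to the tRNA synthetase complex despite its name, had 0, 4, 7 and 2 reads.

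**Figure D2:**
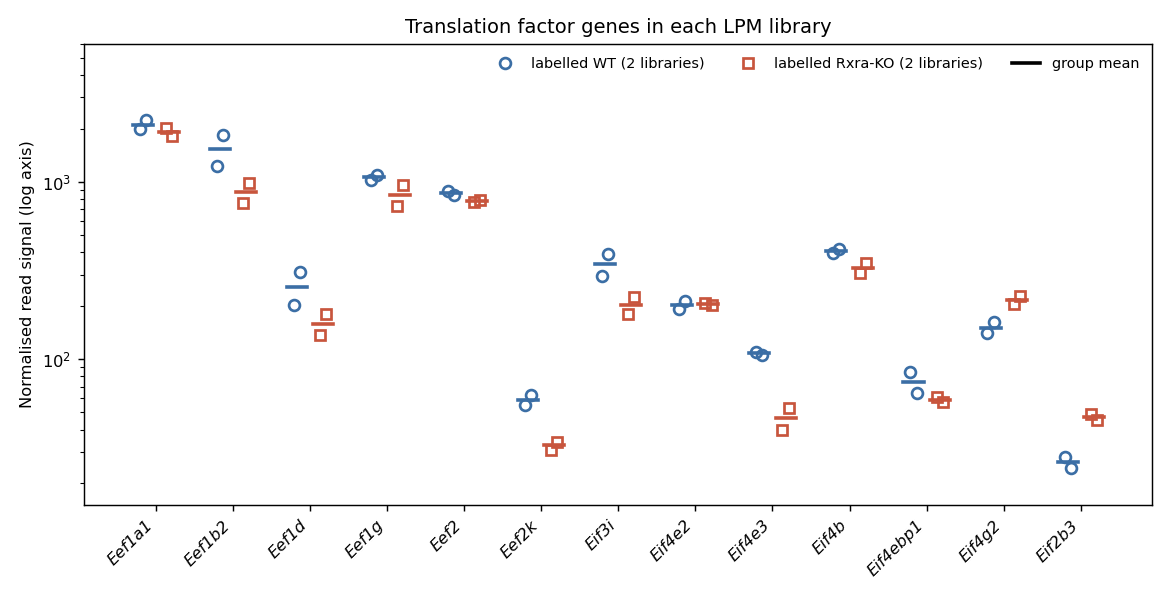
Normalised read signal (log axis) of 13 translation factor genes in each LPM library, with WT as blue circles, libraries labelled Rxra-KO as red squares and bars at the group means of 2 libraries. *Eef1b2*, *Eef1d*, *Eef1g*, *Eef2*, *Eef2k*, *Eif3i*, *Eif4b*, *Eif4e3* and *Eif4ebp1* were lower in both libraries labelled Rxra-KO. *Eif4g2* and *Eif2b3* were higher in both, whereas *Eef1a1* and *Eif4e2* overlapped.

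In WT, the level per kb of the longest protein-coding transcript was 1174 for *Eef1a1*, 793 for *Eef1b2*, 569 for *Eef1g*, 280 for *Eef2* and 90.0 for *Eef1d*. In the libraries labelled Rxra-KO the same levels per kb were 1070, 450, 455, 253 and 55.7. *Eef1b2* thus stood above *Eef1g* per kb in both WT libraries (635 and 951 against 552 and 585). It stood slightly below *Eef1g* in both libraries labelled Rxra-KO (390 and 509 against 395 and 516). In reads *Eef1b2* stayed above *Eef1g* there (502 and 994 against 488 and 967). The crossing per kb thus rests on the transcript lengths used, 1.94 kb for *Eef1b2* and 1.86 kb for *Eef1g*. Since 64.3% of the 50-base stretches of *Eef1g* occur in other genes, this order is uncertain.

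The 3 subunits of eEF1B are counted among the TOP mRNAs. A list of 9 translation factor genes known for TOP mRNAs (*Eef1a1*, *Eef1b2*, *Eef1d*, *Eef1g*, *Eef2*, *Eif3e*, *Eif3f*, *Eif3h* and *Eif4b*) had 8 members below 0, 1 called and a median log2 fold change of −0.28. The groups did not overlap for 5 of the 9, all lower, and 19.3% of the table lay lower without overlap. The other 50 translation factor genes had 17 members below 0, 1 called and a median of 0.08. The 77 cytosolic ribosomal protein genes, the largest TOP class, had 69 below 0, 16 called lower and none higher, and a median of −0.65. Of all genes in the table, 0.969% were called lower, and among genes with a mean of at least 100 reads 13.7% were called in either direction. The ribosomal protein calls numbered 1 without WT replicate 2 and 3 without Rxra-KO replicate 1. Their share of all reads was 4.26%, 5.20%, 2.47% and 3.09%, so WT replicate 2 was highest for these genes, for *Eef1b2* and for the cycling list (1698), whose part in the eEF1B values was not tested. The medians kept their sign with each library left out for the TOP list (−0.42 to −0.14) and the ribosomal proteins (−0.84 to −0.46), and not for the other 50 genes (−0.07 to 0.19).

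**Figure D3:**
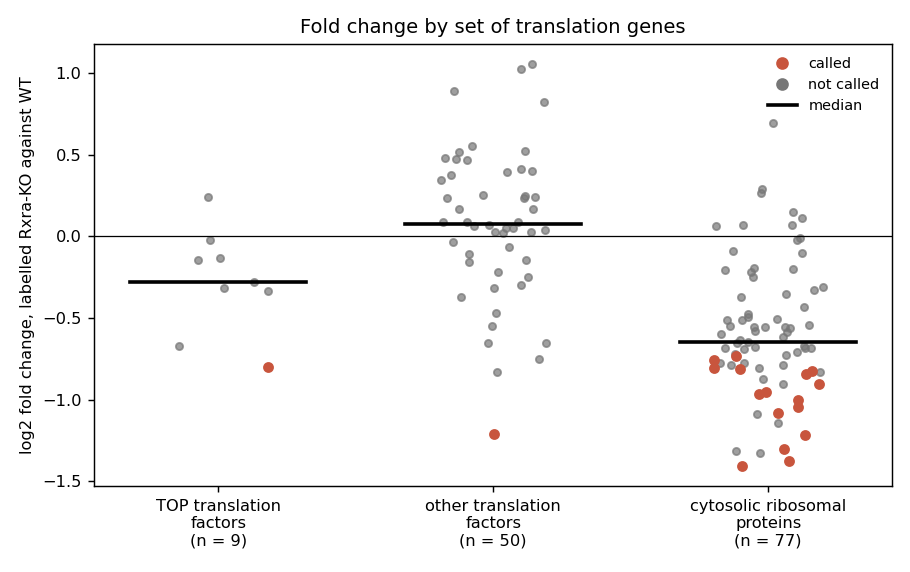
Log2 fold change in the libraries labelled Rxra-KO against WT for 9 TOP translation factor genes, the other 50 translation factor genes and 77 cytosolic ribosomal protein genes, with called genes in red and the medians as bars. The medians stand at −0.28, 0.08 and −0.65.

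Start regions were read from the RefSeq promoter table of GRCm38.p6, which held 46 of the 59 genes. A tract was a C followed by at least 4 letters C or T, on the strand of the transcript only, beginning within 5 bases of an annotated start. It was found for 12 of the 46 (26.1%), for 2 of the 5 TOP-list genes with an entry (40.0%) and for 27 of 58 ribosomal protein genes (46.6%). It was also found for 3105 of 13664 genes of the expression table (22.7%) and for 18.3% of all 32851 starts. Windows of 30 bases, from 10 before to 20 from the annotated start onwards, are shown for those 5 genes, because they are the translation factors whose class rests on this feature. Capitals mark the tract.

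Eef1a1 (chr9:78481705-78481734, minus strand): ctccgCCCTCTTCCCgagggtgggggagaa
Eif3f (chr7:108934405-108934434, plus strand): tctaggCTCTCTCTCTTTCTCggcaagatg
Eef1b2 (chr1:63176821-63176850, plus strand): ctgcagttccgccggaagtagccgaggcct
Eef2 (chr10:81176621-81176650, plus strand): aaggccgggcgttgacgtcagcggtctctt
Eif4b (chr15:102073763-102073792, plus strand): tcccgtcggacgccgcgccaccccctcgcg

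The tract of *Eef1a1* was 10 bases long and that of *Eif3f* 15 bases. They began at base −5 and base −4, so part of each lay before the annotated start. Whether the marked letters are the motif of the transcript was not tested. In *Eef2* and *Eif4b* a run of the same letters lay farther in, from base 16 and base 11 counted from the annotated start. The window of *Eef1b2*, the gene that fell, held no such run, and an annotated start may differ from the start used in LPMs. *Eef1d*, *Eef1g*, *Eif3e* and *Eif3h* had no entry.

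The cap-binding complex eIF4F joins the cap-binding protein eIF4E, the helicase eIF4A and the scaffold eIF4G. With its helpers it counted 11 genes, of which 4 were below 0, 1 was called and the median log2 fold change was 0.03. *Eif4e3* had 72, 97, 26 and 53 reads, a signal of 110, 106, 39.9 and 53.1. The mean was 108 ± 2.83 in WT and 46.5 ± 9.36 in the libraries labelled Rxra-KO (SD, n = 2), 2.31-fold lower on the log2(value + 1) scale. The log2 fold change was −1.21 with an SE of 0.31 and an interval from −1.83 to −0.59 (limma adjusted p = 0.00929). The direction held in all 4 fits that left out a library (−1.41 to −1.01), but the call held only without Rxra-KO replicate 2. The limma adjusted p was 0.112 without WT replicate 1, 0.108 without WT replicate 2 and 0.269 without Rxra-KO replicate 1. DESeq2 on the recovered reads did not call it (adjusted p = 0.12), and over all settings the adjusted p ranged from 0.00302 to 0.527. Of its transcript 12.3% of 50-base stretches occur in 91 other genes, with *Gm20696* sharing more of them than any other gene.

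The other members of the eIF4E family were not called. *Eif4e*, the canonical cap-binding protein, had 8, 25, 10 and 23 reads and a log2 fold change of 0.02, with an interval from −0.97 to 1.02, and its sign changed with the scaling and the tool. *Eif4e2*, which binds the cap without recruiting eIF4G and acts in repression, had a signal of 192, 213, 209 and 203, with a log2 fold change of 0.03 and an interval from −0.46 to 0.51. *Eif4e1b*, a germ-line form, had 6, 6, 4 and 20 reads. Per kb of transcript, *Eif4e3* made up 43.0%, 38.6%, 19.9% and 25.0% of the sum of *Eif4e*, *Eif4e2* and *Eif4e3*. The mean share was 40.8% ± 3.17 in WT and 22.4% ± 3.61 in the libraries labelled Rxra-KO (SD, n = 2). *Eif4e2* was the largest of the 3 in every library, with 54.5%, 56.4%, 76.3% and 69.6%.

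Among the helicases, *Eif4a1* had 24, 54, 43 and 66 reads (log2 fold change 0.48, interval −0.18 to 1.15) and *Eif4a2* had 65, 115, 65 and 115 reads (−0.07, interval −0.62 to 0.49). The share of *Eif4a1* in the pair per kb was 36.0%, 41.8%, 50.2% and 46.7%, without overlap, but 65.3% of its 50-base stretches occur in other genes, which leaves the split uncertain. The scaffold *Eif4g1* had a log2 fold change of 0.05 (interval −0.44 to 0.55) and *Eif4g3* of 0.16 (interval −0.39 to 0.71). *Eif4g2*, a scaffold form that lacks the eIF4E site, had a signal of 140, 161, 206 and 228 and a log2 fold change of 0.52 with an interval from 0.03 to 1.02 (limma adjusted p = 0.443). Its share of the 3 scaffolds per kb was 29.0%, 29.2%, 37.7% and 34.0%, higher in both libraries labelled Rxra-KO. The helicase cofactors *Eif4b* and *Eif4h* had log2 fold changes of −0.32 and −0.14. *Eif4a3*, which marks exon junctions and does not belong to eIF4F, had 0.40 with an interval from −0.08 to 0.89.

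The eIF4E-binding proteins hold eIF4E away from eIF4G until mTOR phosphorylates them. *Eif4ebp1* had a signal of 84.0, 64.5, 61.0 and 57.1 and a log2 fold change of −0.32 with an interval from −0.94 to 0.31. *Eif4ebp2* had 6, 3, 3 and 4 reads (interval −1.82 to 1.23) and *Eif4ebp3* had 4, 9, 15 and 11 reads (interval −0.33 to 2.11), so that only a large change was detectable at this depth. *Eif4enif1*, which moves eIF4E into the nucleus, had a log2 fold change of −0.25 (interval −1.04 to 0.54). No gene of this group was called.

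eIF3 is the large scaffold on which the other initiation factors gather, and its 12 measured subunits had a median log2 fold change of 0.06, with 4 below 0 and none called. *Eif3i*, a core subunit with a propeller fold, stood apart in value with 193, 361, 119 and 226 reads and a signal of 293, 392, 180 and 225. Its mean was 343 ± 70.1 in WT and 202 ± 31.8 in the libraries labelled Rxra-KO (SD, n = 2), and both of the latter lay below both WT libraries. Its log2 fold change was −0.75 with an interval from −1.22 to −0.28 (limma adjusted p = 0.0750), short of the threshold. The limma adjusted p was 0.0494 with DESeq2 size factors, and over all settings the adjusted p ranged from 0.0137 to 0.695 with the direction kept. It was 0.686 without WT replicate 2.

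The largest subunit, *Eif3a*, had a signal of 1232, 1375, 1259 and 1393 and a log2 fold change of 0.03 with an interval from −0.40 to 0.45. Reads of *Eif3i* per 100 reads of *Eif3a* were 23.7, 28.5, 14.2 and 16.1, a mean of 26.1 ± 3.36 in WT and 15.2 ± 1.33 in the libraries labelled Rxra-KO (SD, n = 2). *Eif3g*, which forms a module with eIF3i in the complex, had a log2 fold change of 0.05 (interval −0.39 to 0.49), and *Eif3b*, the scaffold of that module, had 0.37 (interval −0.18 to 0.93). *Eif3l* (−0.47), *Eif3f* (−0.28) and *Eif3e* (−0.03) were the other subunits below 0. *Eif3m* (0.07), *Eif3k* (0.09), *Eif3d* (0.23), *Eif3h* (0.24) and *Eif3c* (0.39) were above 0.

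**Figure D4:**
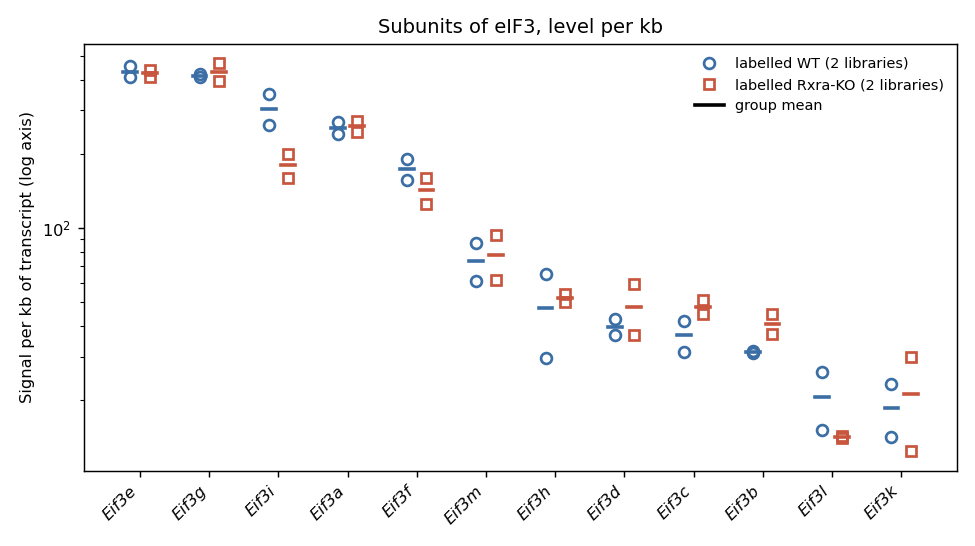
Level of the 12 eIF3 subunits per kb of the longest transcript (log axis) in each library, with WT as blue circles, libraries labelled Rxra-KO as red squares and bars at the means. The levels span 23.0-fold in WT, from *Eif3e* to *Eif3k*, and *Eif3i* is lower in both libraries labelled Rxra-KO.

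Per kb, the WT means ran from 431 for *Eif3e*, 414 for *Eif3g*, 305 for *Eif3i*, 254 for *Eif3a* and 173 for *Eif3f* down to 20.6 for *Eif3l* and 18.7 for *Eif3k*. The highest was 23.0-fold above the lowest in WT. In the libraries labelled Rxra-KO it was 30.3-fold, between another pair, *Eif3g* (430) and *Eif3l* (14.2). The 2 highest overlapped in both groups, as did the 2 lowest in WT. Of the 12 subunits 7 share no 50-base stretch with another gene, while *Eif3e*, *Eif3h* and *Eif3m* share between 22.0% and 34.6%.

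eIF2 delivers the initiator tRNA, eIF2B recharges it, and 4 stress kinases block that step by phosphorylating its alpha subunit. *Eif2s1*, the alpha subunit, had a signal of 79.5, 67.8, 103 and 102 and a log2 fold change of 0.48 with an interval from −0.11 to 1.06. *Eif2s2*, the beta subunit, had 0.03 (interval −0.75 to 0.82). The gamma subunit genes lie outside this set.

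Among the 5 subunits of eIF2B the median was −0.22 and none was called. *Eif2b3* had 18, 22, 32 and 45 reads, a signal of 28.0, 24.4, 48.9 and 45.2, higher in both libraries labelled Rxra-KO. The fold change on the log2 scale was 0.82 with an interval from 0.05 to 1.60 (limma adjusted p = 0.434). *Eif2b5*, the catalytic subunit, had −0.22 (interval −0.76 to 0.32), *Eif2b1* had −0.55, *Eif2b2* had −0.65 and *Eif2b4* had 0.09, the last 3 on few reads.

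Of the kinases, *Eif2ak2* (PKR, which senses double-stranded RNA) was the highest, with a signal of 555, 670, 582 and 721 and a log2 fold change of 0.09 (interval −0.35 to 0.52). *Eif2ak1* (HRI, heme) had 14, 35, 13 and 24 reads and −0.37, *Eif2ak3* (PERK, the endoplasmic reticulum) had 10, 8, 12 and 14 reads and 0.41, and *Eif2ak4* (GCN2, amino acids) had 10, 16, 10 and 15 reads and −0.11. Per kb the WT means were 142 for *Eif2ak2*, 6.99 for *Eif2ak1*, 3.19 for *Eif2ak4* and 2.78 for *Eif2ak3*, and the last 2 overlapped. None of the 4 was called. A list of genes of the integrated stress response, not all of them downstream of these kinases, gave 0 calls of 13 in the table, with a median of −0.08.

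Start-codon selection rests on eIF1 and eIF1A, and eIF5 triggers GTP hydrolysis by eIF2. *Eif1* had a signal of 261, 326, 273 and 340 and a log2 fold change of 0.06 (interval −0.40 to 0.53). *Eif1b* had −0.04, *Eif1a* 0.25 and *Eif5* 0.52 (interval −0.15 to 1.18). *Eif1ax* had 12, 16, 3 and 23 reads and −0.65, with a sign that turned to 0.33 without Rxra-KO replicate 1. *Eif1ad*, a nuclear protein with an eIF1A-like domain, had 27, 51, 41 and 81 reads and a log2 fold change of 0.55 (interval −0.10 to 1.20). *Eif2a* and *Eif2d*, which can deliver tRNA without eIF2, had 12, 10, 14 and 14 reads and 3, 12, 4 and 8 reads.

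For the late steps, *Eif5b*, the GTPase of subunit joining, had a log2 fold change of 0.16 (interval −0.29 to 0.62). *Eif6*, which keeps the large subunit from joining early, had 0.24 (interval −0.40 to 0.88). *Eif5a*, which carries the amino acid hypusine and helps ribosomes through hard stretches, had 17, 23, 15 and 40 reads and 0.23 (interval −0.61 to 1.07), and *Eif5a2* had 6, 4, 7 and 21 reads and 1.05 (interval −0.22 to 2.33). The enzymes that make hypusine, *Dhps* and *Dohh*, gave 0 calls of 2, with log2 fold changes of 0.81 and −0.34.

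**Figure D5:**
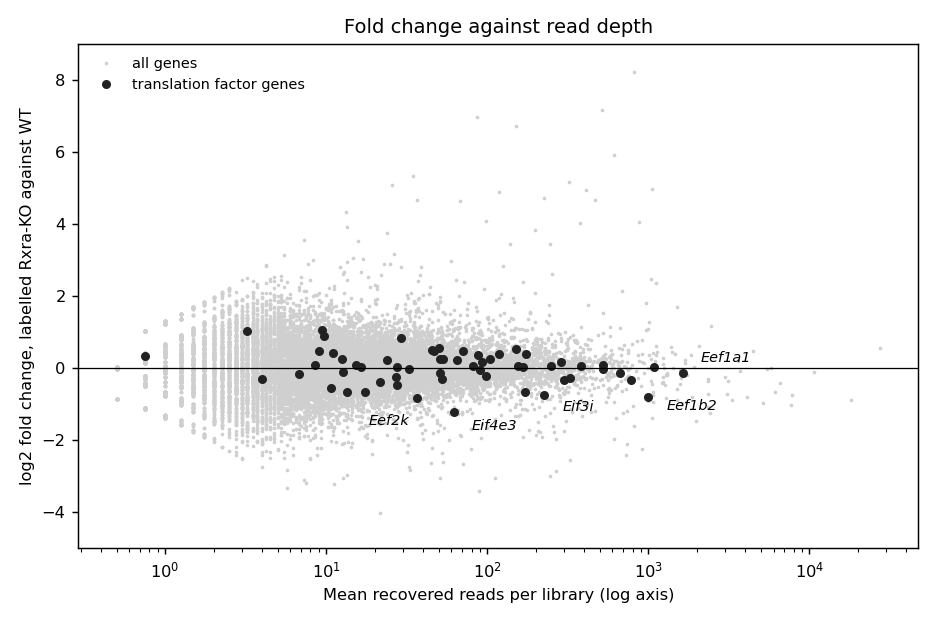
Log2 fold change against the mean of recovered reads per library (log axis) for all 18364 genes (grey) and the 59 translation factor genes (black). The members lie between −1.21 and 1.05, and the fold changes of the grey genes spread more widely at low depth.

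Other genes of the pathway were counted from lists. Of 14 genes of termination, poly(A) binding and ribosome recycling 1 was called, *Mcts1*, which with *Denr* recycles small subunits, with 18, 34, 2 and 16 reads, with −1.88 as its log2 fold change (limma adjusted p = 0.0327). That call held in 1 of 4 fits that left out a library. *Pabpc1*, the poly(A)-binding protein and itself a TOP mRNA, had 6679, 12387, 3978 and 8026 reads, with −0.75 as its log2 fold change (limma adjusted p = 0.0645). Of 17 measured genes of mTOR signalling to translation 0 were called, with a median of 0.08, and of 9 mitochondrial translation factors 0 were called, with a median of −0.01. An unadjusted p under 0.05 was found for 2 of the 17, 0 of the 9 and 0 of the 13 stress response genes, and for 1 of the 2 hypusine enzymes.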

How the data were processed

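RNA of double-sorted LPMs was amplified by the authors as full-length cDNA (SMART-Seq v4, no molecular identifiers) and sequenced on the NextSeq-500. According to the methods, transcripts were quantified with Kallisto 0.43.0 (the reference named is GRCh38, although symbols are of mouse), summarised with tximport, filtered and scaled by TMM. The authors deposited a normalised read signal, 1 column per library. Each value was (reads + 0.5) times a fixed step, so whole reads were recovered from the deposited signal (100% of values, tolerance 0.001 reads). Each further read added 1.51, 1.08, 1.51 and 0.993 in the 4 libraries, and a gene at the floor of 3 reads had a value of 5.30, 3.80, 5.27 and 3.48. Floors cover counting error only, since reads are not molecules. The 95% intervals are those of the limma fit, which shares the spread between libraries largely across genes.

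Genes were compared on the log2(value + 1) scale, which understates changes of low genes, with limma 3.58.1 in R 4.3.3 (empirical Bayes with a mean-variance trend, all 4 libraries, no covariate, two-sided, Benjamini-Hochberg over 18364 genes). The filter (value 1 or more, 2 or more libraries) removed 0 genes. With 2 against 2 libraries an exact permutation test cannot go below p = 0.333, so each adjusted p rests on spread shared across genes (227 prior and 2 residual degrees of freedom). Alternatives were other pseudocounts, filters and scalings, limma without a trend, edgeR 4.0.16, voom, DESeq2 1.42.0, a replicate block and leaving out each library.

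Replicates are numbered 1 and 2 in the titles and 2 and 3 in the table, and titles were followed. The members, complexes and lists were chosen with earlier results of these data known. Named genes were the called members, the highest and the most changed member of each complex, a set of core factors, called list genes, *Rxra* and *Lyz2*. All further members (such as *Eif4e2*, *Eif4g2* and *Eif3l*) are given to account for the whole set and were chosen after their values were seen. Of the translation factor names listed by complex, 9 were not found in the table (*Eif3j* and methyltransferases of eEF1A and eEF2), and some names of the pathway and marker lists were also not found, so those counts are of measured genes. Transcript lengths and shared 50-base stretches came from GENCODE M21.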

Additional observations from a re-analysis of the deposited data

How the results depend on the processing

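The count of called translation factor genes was 2 with other pseudocounts, filters, upper quartile scaling, edgeR, voom and no fold threshold. It was 3 with DESeq2 size factors and with the replicate block, 1 with DESeq2, 0 with limma without a trend (which called 0 genes of the table, and 1 member at an unadjusted p under 0.05), and 0 to 2 with a library left out. Only 2 pairs share a replicate number, and deviations of same-numbered libraries had a correlation of 0.0635 across 8850 genes, so the number was not taken as a pairing. With it as a block, 540 genes of the table were called in place of 421, and *Eif3i* was called (limma adjusted p = 0.0137). DESeq2 called 235 genes of the table, and leaving out a library gave between 236 and 377. With a library left out the median of the 59 genes ran from −0.072 to 0.116, that of eIF3 from −0.143 to 0.132, of the eIF4E-binding proteins from −0.298 to 0.080, of eIF1, eIF1A and eIF5 from −0.094 to 0.284 and of eIF4F from −0.162 to 0.265. The median of eIF2A and eIF2D was 0.26 in place of 0.05 with a value of at least 10, or a mean of at least 10 reads, since *Eif2d* then drops out. The sign of *Eif4e* turned with DESeq2 size factors (−0.0003), edgeR (−0.0634), voom (−0.0021) and DESeq2 (−0.0806).

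Among the members named by the rule, the log2 fold change changed sign with a library left out for 12 genes: *Eif1* (−0.10 to 0.22), *Eif2ak2* (−0.067 to 0.24), *Eif3a* (−0.054 to 0.11), *Eif4e* (−0.50 to 0.54), *Eif4ebp2* (−0.89 to 0.29), *Eif4g1* (−0.16 to 0.27), *Eef1a2* (−0.20 to 0.885), *Eif2a* (−0.088 to 0.60), *Eif2ak1* (−0.77 to 0.018), *Eif4a2* (−0.23 to 0.10), *Eif1ax* (−1.63 to 0.33) and *Eif5a* (−0.15 to 0.61). The causes of these changes were not tested. Over all 59 genes, 32 kept their direction in all 4 such fits, 17 lower and 15 higher, and 27 did not. Depth limits the set, since 8 members had a mean under 10 reads and a median SE of 0.69.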

Other observations

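Within-library ratios that the comparisons above do not use were also read. Reads of the 3 eEF1B subunits together per 100 reads of *Eef1a1* were 124, 145, 80.4 and 117 (WT replicates 1 and 2, then Rxra-KO replicates 1 and 2), without overlap of the groups. *Eef1b2* per 100 reads of *Eef1g* was 120 and 169 in WT and 103 and 103 in the libraries labelled Rxra-KO. *Eif3i* per 100 reads of *Eif3g* was 65.2, 84.5, 41.3 and 43.9. *Eif4ebp1* per 100 reads of *Eif4e2* was 43.7, 30.1, 29.0 and 27.9. *Pdcd4*, an inhibitor of the eIF4A helicase from the mTOR list, had 112, 192, 88 and 91 reads, with a log2 fold change at −0.77 (limma adjusted p = 0.124). *Sesn1*, which restrains mTOR complex 1 and is from the same list, had 58, 66, 132 and 114 reads, with a log2 fold change at 0.91 (limma adjusted p = 0.0613). Both were chosen after their values were seen, and neither was called.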
